A study of Mus musculus with 9 samples.

Results

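Transcripts of 39 genes that carry cells through mitosis were followed in mouse embryos whose histone deacetylases or corepressor scaffold had been lowered. The genes encode cyclin-dependent kinase 1 and its regulators, the Polo-like and Aurora kinases, the spindle checkpoint, the kinetochore and the machinery that separates chromosomes and daughter cells. They were chosen by name, as a functional list, with earlier results of these data known. All 39 were found among the 20087 named genes of the table. Embryos of the B6D2F1 background (a mouse hybrid) received small interfering RNA (siRNA, which destroys messenger RNA of matching sequence) at the zygote stage and were collected at E2.75 (embryonic day), around the morula stage. The 3 groups received nonspecific control siRNA (NC, labelled wild type), siRNA against both Hdac1 and Hdac2 (Hdac1/2 cKD, a co-knockdown), or siRNA against Sin3a (Sin3a KD). No deletion or transgene is named for any group, and all were injected. Each group has 3 libraries of polyadenylated RNA, each from 60 pooled embryos, so a library averages over all cells of its pool. The title of the series asks about overlapping roles of both deacetylases before implantation. The labels do not say that the 3 libraries of a group came from separate collections, so p-values measure the spread between these libraries, which may be technical.

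Cyclin-dependent kinase 1, bound to a B-type or A-type cyclin, starts mitosis once Cdc25 phosphatases remove the inhibitory phosphate that Wee1 places on it. Kinetochores, built on centromeric chromatin, then capture spindle microtubules, and the spindle assembly checkpoint blocks the anaphase-promoting complex (APC/C, a ubiquitin ligase) until every chromosome is attached. Preimplantation embryos divide by cleavage, without growing between divisions, begin with transcripts stored by the egg, and are known for frequent errors of chromosome segregation. Hdac1 and Hdac2 encode closely related enzymes that remove acetyl groups from histones, and Sin3a is the scaffold of a complex that holds both.

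Values are normalised counts, that is, read counts the authors divided by a scaling factor of each library, and are given in the order replicate 1, 2, 3. Means are given ± SD with n = 3, and gene positions are those of GRCm38 (GENCODE vM21). Fold changes are differences of log2(value + 1), with a standard error (SE) and a p-value from limma adjusted (Benjamini-Hochberg) across the 13343 genes tested. On this scale the change of a weakly expressed gene is understated. A gene was called when its adjusted p was below 0.05, and "rose", "fell" or "changed" is kept for called genes. Each call was repeated under 20 alternative settings (other scalings, filters, models and each library left out in turn), and the number of settings in which it held is given beside it. NC serves in both comparisons with a knockdown, so these are not independent. In such bulk samples, fewer cells in a phase of the cycle and less RNA per cell cannot be told apart.

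The libraries held 11.9 M to 13.5 M normalised counts, and their depth, estimated from the value of a single read, was 8.38 M reads in NC replicate 3 to 17.0 M in NC replicate 1. NC replicate 3 also had the highest share of genes at 0 (28.4%, against 13.2% to 23.4% elsewhere) and its first principal component score was -96.6, where the remaining NC libraries had -16.8 and -20.7. The targets were low where the labels place them: Hdac1 was at 16.9% and Hdac2 at 13.3% of the NC mean in Hdac1/2 cKD, and Sin3a at 29.0% in Sin3a KD. Hdac1 was also at 34.3% of NC in Sin3a KD, and Hdac2 at 90.1%. Sin3a was at 138% of the NC mean in Hdac1/2 cKD, with each library above every NC library. Of 10 genes that mark the morula and trophectoderm (such as Cdx2, Gata3 and Pou5f1), none was at 0 in any library. Their summed count lay between 42426 and 46956 in NC, between 29933 and 32923 in Hdac1/2 cKD and between 40141 and 43901 in Sin3a KD. Of the 10, 6 fell in Hdac1/2 cKD and 3 in Sin3a KD. These are 60% and 30%, against 7.80% and 4.36% of all tested genes. Of 12 oocyte markers 10 could be tested and limma called none (0 of 10 against NC also at an unadjusted p below 0.05); their sums lay between 545 and 769 in NC, between 608 and 642 in Hdac1/2 cKD and between 601 and 694 in Sin3a KD. The 8 cumulus cell markers analysed summed to between 19.9 and 44.1 in NC, between 64.8 and 77.9 in Hdac1/2 cKD and between 61.0 and 84.3 in Sin3a KD, with up to 6 of the 8 at 0 in a library. Of them 2 could be tested, Foxl2 and Vim, and limma called neither (1 of 2 at an unadjusted p below 0.05 in each knockdown). The sums of 5 sperm markers were 0 to 11.2, with 2 to 5 of the 5 at 0. The part of these other cell types in the results that follow was not tested.

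All 39 genes passed the filter on low values (at least 10 in at least 3 libraries). In Hdac1/2 cKD against NC, 6 rose, 5 fell and 28 did not pass, whereas 7.81% of all tested genes rose and 7.80% fell. Their median log2 change was 0.05, against 0.03 for all tested genes. In Sin3a KD against NC, 1 rose, 7 fell and 31 did not pass, against a background of 3.60% higher and 4.36% lower. Here the median was -0.19, against 0.03 for all genes, and 30 of the 39 changes were below 0. Compared directly, 12 of the 39 were higher in Hdac1/2 cKD than in Sin3a KD, 2 were lower and 25 did not pass, where 8.49% and 8.78% of all genes were called. The median difference was 0.23, against 0.01. In all, 21 genes (53.8%) were called in at least 1 comparison, against 26.9% of all tested genes, and 18 in none. These all-gene shares include weakly expressed genes, whereas each of the 39 but Aurkc has a mean of at least 50. Of the 9757 genes with such a mean, 954 were higher and 1100 lower in Hdac1/2 cKD. In Sin3a KD 524 were higher and 662 lower, and between the knockdowns 1133 and 1248. The list was chosen with earlier results of these data known, so these shares do not test it. Incenp rose in both knockdowns and Mad2l1 and Cenpa fell in both, and no gene was called in opposite directions against NC. Single libraries moved these counts: without Hdac1/2 cKD replicate 2 only 3 rose and 2 fell in Hdac1/2 cKD, and also 2 fell without NC replicate 1 or without Hdac1/2 cKD replicate 3. Without NC replicate 1, or without NC replicate 3, 4 fell in Sin3a KD, where the 1 gene that rose was lost without either of them, without any 1 Hdac1/2 cKD library, and without Sin3a KD replicate 1 or 3. Without NC replicate 2 there were 2 higher and 10 lower. Between the knockdowns 1 gene was lower without any 1 Hdac1/2 cKD library and without Sin3a KD replicate 1 or 3.

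**Figure D1:**
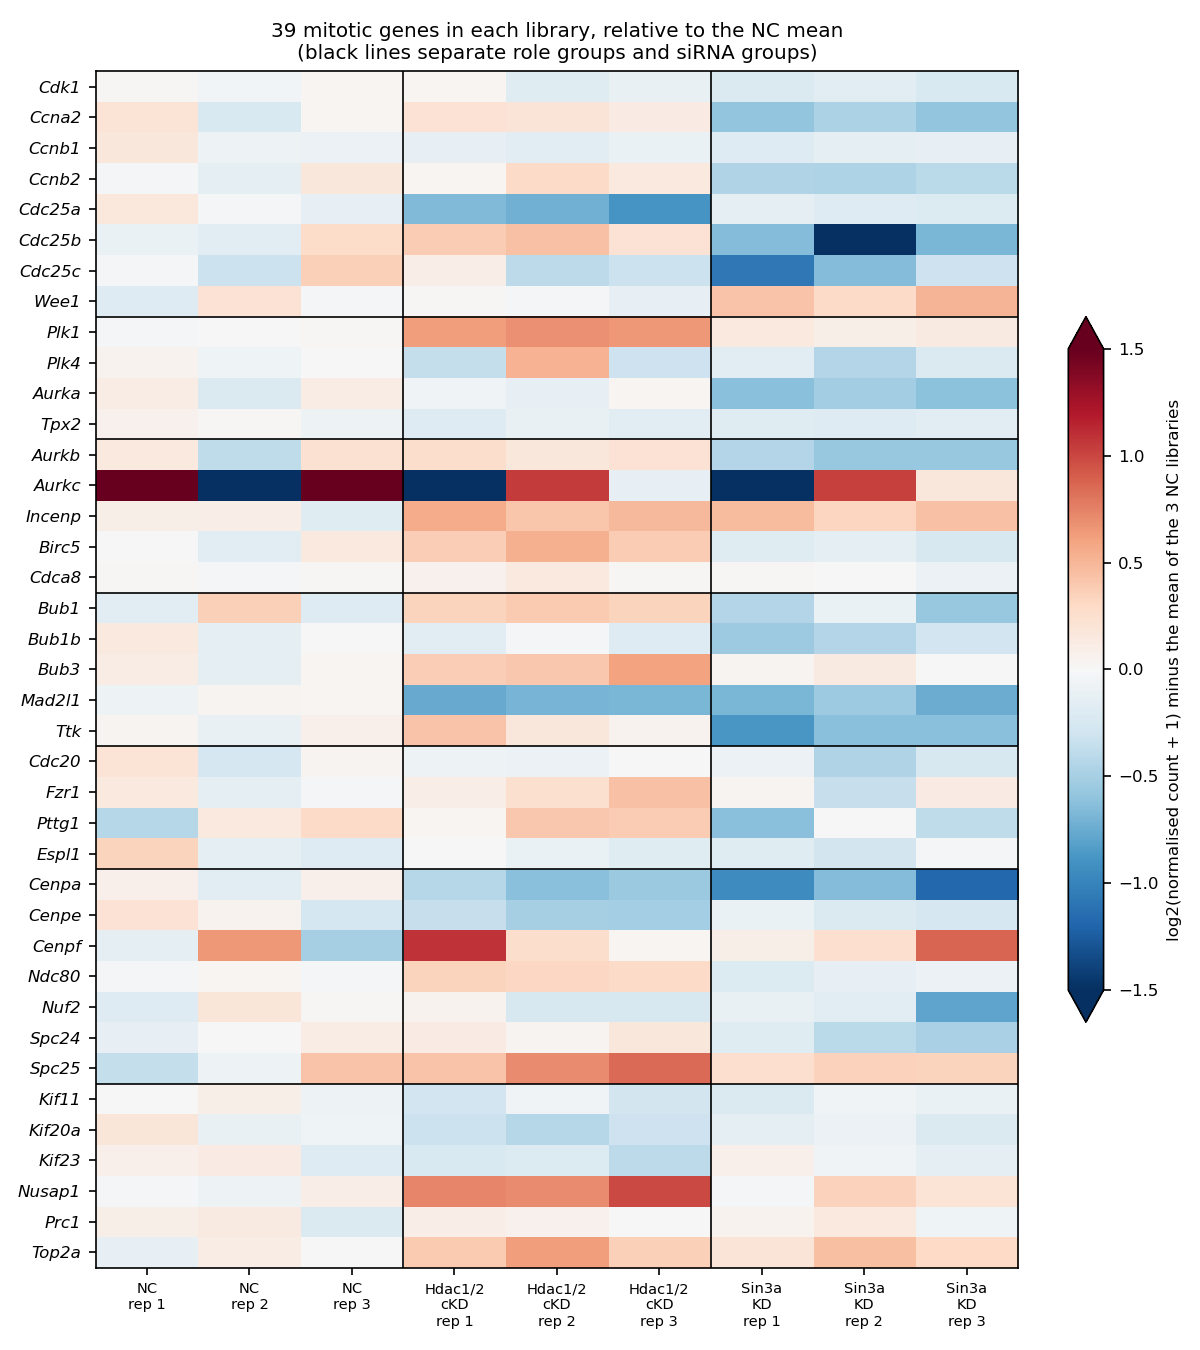
Colour gives log2(normalised count + 1) of each of the 39 genes (rows, grouped by role) in each library (columns) minus the mean of the 3 NC libraries, with colours ending at 1.5 in either direction. Plk1 and Nusap1 are higher in all 3 Hdac1/2 cKD libraries, Cdc25a is lower there, Mad2l1 and Cenpa are lower in all 6 knockdown libraries, and the row of Aurkc, which has values of 0, is not readable as a pattern.

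The summed count of the 39 genes lay between 0.650% and 0.695% of the library in NC, between 0.704% and 0.724% in Hdac1/2 cKD and between 0.624% and 0.650% in Sin3a KD. With libraries scaled to equal totals instead, the median change of all genes moved up by 0.111 in Hdac1/2 cKD and by 0.093 in Sin3a KD. Under that scaling all-gene calls became 1386 higher and 675 lower in Hdac1/2 cKD (1042 and 1041 as deposited), and 741 higher and 425 lower in Sin3a KD (480 and 582 as deposited). Of the 39 genes, 8 were then higher and 3 lower in Hdac1/2 cKD, and 3 higher and 6 lower in Sin3a KD. Cenpe and Kif20a lost their calls in Hdac1/2 cKD and Bub1b in Sin3a KD, while Ndc80 and Spc25 gained one in Hdac1/2 cKD and Wee1 and Top2a in Sin3a KD, all higher. Between the knockdowns Wee1 lost its call and Cenpa gained one.

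Many genes expressed in late G2 and mitosis share promoter letters read by common factors: the cell cycle genes homology region (CHR), bound by MuvB complexes that repress or activate with the cell cycle, and CCAAT, bound by NF-Y. RefSeq promoter windows (GRCm38.p6, 250 bases before to 50 from each start site) were available for 31 of the 39 genes. TTTGAA, the CHR, lay on either strand in 18 of the 31 (58.1%), against 20.2% of 27025 genes with a window. Its variant TTTAAA was in 9 of the 31 (29.0%, against 14.9%). CCAAT was in 24 (77.4%, against 41.1%), and 14 (45.2%, against 13.3%) held at least 2. Neighbouring words can share bases (the ends of CCAAT and TTTGAA, for example), and TTTAAA reads the same on both strands. A match describes the window and is not a measured binding site. The stretches that follow, from 150 bases before to 30 from the start site on the gene's own strand, are those of 4 genes called in Hdac1/2 cKD against NC and of Aurka and Ttk, called in Sin3a KD against NC but not in Hdac1/2 cKD. They were chosen to show windows with and without these words among genes that changed in either direction. Capitals mark the words on either strand (TTCAAA and ATTGG are TTTGAA and CCAAT read on the other strand).
Plk1: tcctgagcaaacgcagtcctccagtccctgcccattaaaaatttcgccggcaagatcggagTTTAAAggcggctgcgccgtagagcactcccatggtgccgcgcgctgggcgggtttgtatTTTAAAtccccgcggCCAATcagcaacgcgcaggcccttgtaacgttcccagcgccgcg
Top2a: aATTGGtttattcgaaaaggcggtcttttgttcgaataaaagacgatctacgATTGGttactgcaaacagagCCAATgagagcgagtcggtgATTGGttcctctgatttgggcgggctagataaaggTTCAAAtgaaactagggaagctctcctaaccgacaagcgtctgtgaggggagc
Cdc25a: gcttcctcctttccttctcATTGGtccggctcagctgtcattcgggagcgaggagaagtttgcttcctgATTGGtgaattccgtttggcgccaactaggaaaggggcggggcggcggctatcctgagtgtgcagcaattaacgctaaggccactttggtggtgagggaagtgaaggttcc
Mad2l1: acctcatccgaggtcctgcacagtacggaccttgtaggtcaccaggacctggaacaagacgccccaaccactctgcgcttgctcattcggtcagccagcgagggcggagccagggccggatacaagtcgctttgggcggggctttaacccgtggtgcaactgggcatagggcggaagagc
Aurka: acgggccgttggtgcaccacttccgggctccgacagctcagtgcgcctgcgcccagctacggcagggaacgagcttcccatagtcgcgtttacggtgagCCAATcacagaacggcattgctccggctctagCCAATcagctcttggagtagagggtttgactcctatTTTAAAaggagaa
Ttk: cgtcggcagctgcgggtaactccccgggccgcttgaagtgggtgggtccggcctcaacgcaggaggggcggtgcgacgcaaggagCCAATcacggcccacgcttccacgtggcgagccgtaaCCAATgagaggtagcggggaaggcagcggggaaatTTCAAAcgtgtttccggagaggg
The Plk1 stretch lies at chr7:122159285-122159464 (forward), that of Top2a at chr11:99024160-99024339 (reverse), that of Cdc25a at chr9:109875429-109875608 (forward), that of Mad2l1 at chr6:66535071-66535250 (forward), that of Aurka at chr2:172370541-172370720 (reverse) and that of Ttk at chr9:83834539-83834718 (forward). Plk1 and Top2a, which rose in Hdac1/2 cKD, have CCAAT at -14 and, nearest the start site, -58. Plk1 also has TTTAAA at -89 and -29, and TTTGAA at 30, which lies beyond its printed stretch. Top2a has TTTGAA at -23 and, before its printed stretch, at -179. Cdc25a, which fell there, has CCAAT at -131 and -81 and no TTTGAA or TTTAAA in its window. Mad2l1, which fell in both knockdowns, has none of the 3 words in its whole window, as is also so for Nusap1, Nuf2 and Pttg1. The Mad2l1 window ends at 66535270, before the GENCODE start of the gene at 66535390. The Pttg1 window (43425932 to 43426231) lies inside the GENCODE gene (43420250 to 43426251). For both genes the absence of the words holds for the RefSeq start site only. Aurka and Ttk, which fell in Sin3a KD, both have a pair of CCAAT words, at -51 and -19 and at -65 and -28, and a TTTGAA at 32 and 7 beyond the start site. The TTTGAA of Aurka lies beyond its printed stretch. Among the other genes that fell in Sin3a KD, Cdc25b and Bub1b hold 1 CCAAT each and Mad2l1 none, so the pair is not shared by all that fell. Ccna2, which also fell there, has no window. At least 2 CCAAT were also found in genes not called in Sin3a KD against NC, such as Cdk1 and Ccnb1. The same holds for Top2a and Bub3, which rose in Hdac1/2 cKD. Cenpa, which fell in both, has CCAAT at -109 and -86, TTTAAA at -17 and TTTGAA at 16.

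**Figure D2:**
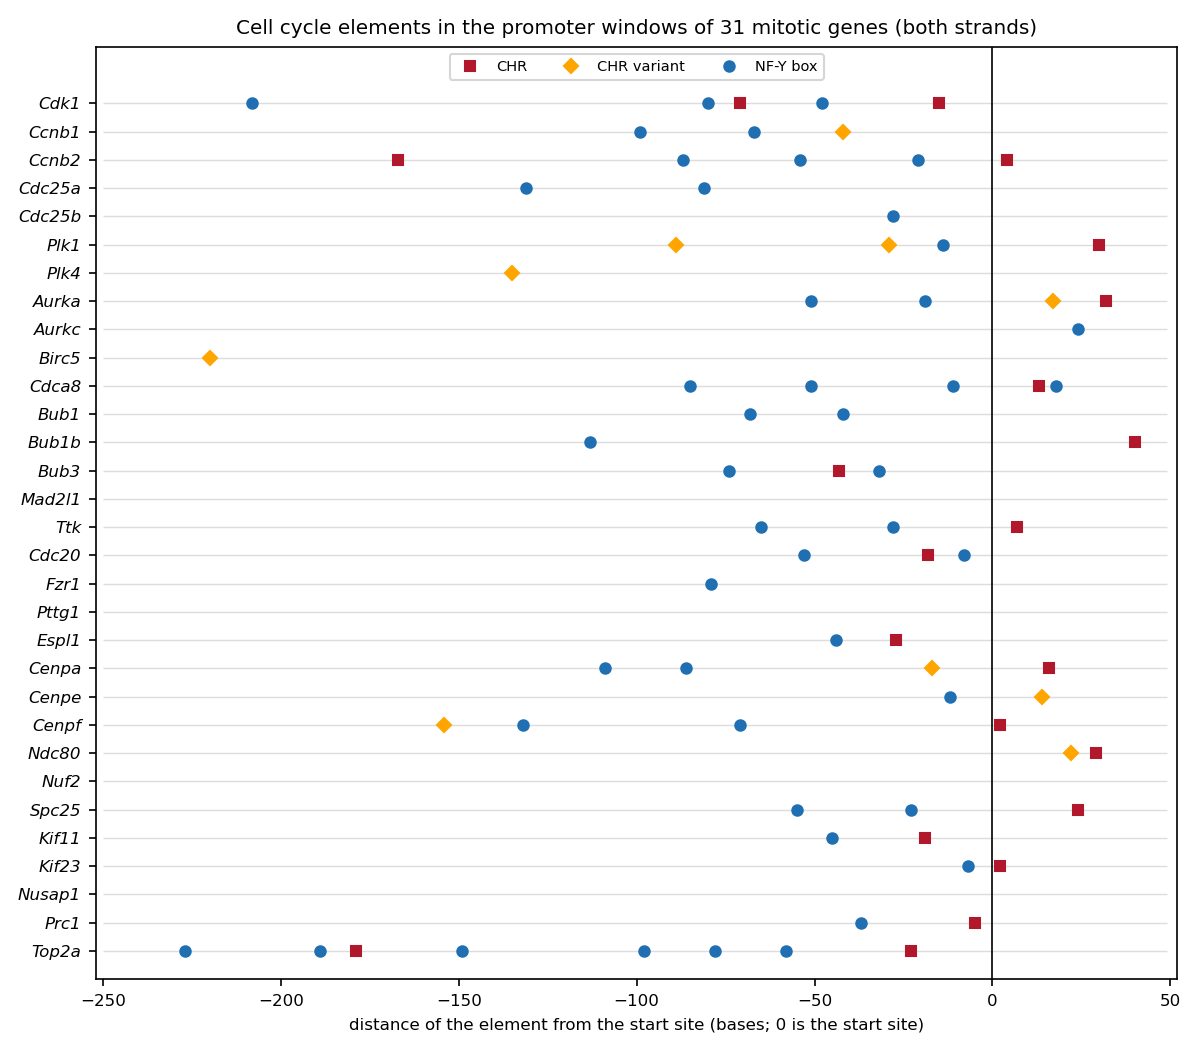
Each mark is a TTTGAA (CHR), TTTAAA (CHR variant) or CCAAT (NF-Y box) found on either strand, placed by its distance in bases from the RefSeq start site (x axis, 0 is the start site), for the 31 genes with a window (rows; the first window where a gene has several). Top2a holds the most CCAAT words and Mad2l1, Pttg1, Nuf2 and Nusap1 hold none of the words.

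Among Cdk1, its cyclins and its regulators, Cdc25a fell in Hdac1/2 cKD and Ccna2 and Cdc25b fell in Sin3a KD, while the other changes of these 8 genes against NC did not pass. Cdc25a, the phosphatase that opens both S phase and mitosis (chromosome 9, 109875579 to 109893895, forward strand), stood at 3640.3, 3214 and 3001 in NC, at 2069, 1991 and 1773 in Hdac1/2 cKD and at 2949, 2858 and 2837 in Sin3a KD. Its Hdac1/2 cKD values were below all others, while those of Sin3a KD lay below the lowest NC library by little. The mean was 59.2% of NC in Hdac1/2 cKD (log2 -0.75, SE 0.10, adjusted p = 0.000445; called in 20 of 20 settings) and was lower than in Sin3a KD (log2 -0.57, SE 0.10, adjusted p = 0.00223; called in 20 of 20). In Sin3a KD it did not pass (log2 -0.18, SE 0.10, adjusted p = 0.302). Cdc25b (chromosome 2, 131186949 to 131198497, forward strand), a phosphatase that acts at the start of mitosis, stood at 348, 329 and 449.6 in NC, at 484, 503 and 432 in Hdac1/2 cKD and at 237, 128 and 230.2 in Sin3a KD. Sin3a KD was below both other groups in every library, with replicate 2 lowest, and the other groups overlapped. It fell to 52.9% of NC in Sin3a KD (log2 -0.96, SE 0.24, adjusted p = 0.0257; called in 13 of 20) and was higher in Hdac1/2 cKD than in Sin3a KD (log2 1.30, SE 0.24, adjusted p = 0.00217; called in 20 of 20), the largest called log2 difference of the 39 genes there. Cdc25b had an adjusted p in Sin3a KD of 0.0572 without NC replicate 1, 0.0791 without NC replicate 3 and 0.0652 without Sin3a KD replicate 2. For Cdc25b the alternative settings spanned adjusted p-values of 0.0205 to 0.103. Cdc25c, their relative, ranged from 100.2 to 270.3 over the 9 libraries and did not pass in any comparison; in Sin3a KD its change was log2 -0.68, SE 0.27, adjusted p = 0.140.

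Ccna2 (chromosome 3, 36564865 to 36572150, reverse strand), cyclin A2, which partners Cdk1 and Cdk2, stood at 5788, 4281 and 5112 in NC, at 5819, 5732 and 5454 in Hdac1/2 cKD and at 3321, 3607 and 3334 in Sin3a KD. The Sin3a KD libraries were below all others, and NC and Hdac1/2 cKD overlapped. It fell to 67.6% of NC in Sin3a KD (log2 -0.55, SE 0.11, adjusted p = 0.00947; called in 17 of 20) and was higher in Hdac1/2 cKD than in Sin3a KD (log2 0.73, SE 0.11, adjusted p = 0.000569; called in 20 of 20). Of its exons 12.5% overlap Exosc9 on the opposite strand, whose change in Sin3a KD was log2 -0.06, and the counting is not stated to use strand. Ccnb1, cyclin B1, had the highest level per kb of the set and stood at 10198, 8635 and 8526 in NC, at 8377, 8063 and 8471 in Hdac1/2 cKD and at 7924, 8299 and 8334 in Sin3a KD. Both knockdowns lay just below NC, and neither passed (log2 -0.13, SE 0.09, adjusted p = 0.354 and log2 -0.15, SE 0.09, adjusted p = 0.320), with 95% confidence intervals of -0.32 to 0.06 and -0.34 to 0.04. Ccnb2 (chromosome 9, 70407692 to 70421547, reverse strand), cyclin B2, stood at 653, 599 and 749 in NC, at 679.6, 807 and 734 in Hdac1/2 cKD and at 485, 481 and 502 in Sin3a KD. Its Sin3a KD values were the lowest, while Hdac1/2 cKD overlapped NC. It did not pass against NC in Sin3a KD (log2 -0.44, SE 0.14, adjusted p = 0.0687) but was higher in Hdac1/2 cKD than in Sin3a KD (log2 0.59, SE 0.14, adjusted p = 0.00993; called in 18 of 20). Ccnb2 had an adjusted p in Sin3a KD of 0.0406 without NC replicate 2. For Ccnb2 the alternative settings spanned adjusted p-values of 0.0406 to 0.252. Ccnb2 had an adjusted p between the knockdowns of 0.0571 without Hdac1/2 cKD replicate 2. For Ccnb2 the alternative settings spanned adjusted p-values of 0.00581 to 0.0685.

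Wee1 (chromosome 7, 110122046 to 110143286, forward strand), the kinase that holds Cdk1 inactive, stood at 714, 951 and 797 in NC, at 826, 800.02 and 750.2 in Hdac1/2 cKD and at 1095, 997 and 1158 in Sin3a KD, with the Sin3a KD libraries above all others and NC and Hdac1/2 cKD overlapping. The difference from NC did not pass (log2 0.41, SE 0.13, adjusted p = 0.0801), and Wee1 was lower in Hdac1/2 cKD than in Sin3a KD (log2 -0.45, SE 0.13, adjusted p = 0.0347; called in 10 of 20). Wee1 had an adjusted p in Sin3a KD of 0.0270 without NC replicate 2. For Wee1 the alternative settings spanned adjusted p-values of 0.0270 to 0.380. Wee1 had an adjusted p between the knockdowns of 0.0692 without Hdac1/2 cKD replicate 1, 0.0899 without Hdac1/2 cKD replicate 2, 0.112 without Hdac1/2 cKD replicate 3, 0.103 without Sin3a KD replicate 1 and 0.118 without Sin3a KD replicate 3. For Wee1 the alternative settings spanned adjusted p-values of 0.0138 to 0.118. Cdk1 itself stood at 4416, 4253 and 4457 in NC, at 4458, 3870.4 and 4034 in Hdac1/2 cKD and at 3755, 3874 and 3719.6 in Sin3a KD. The Sin3a KD values were below all NC values, though by little, and no comparison passed (log2 -0.09, SE 0.09, adjusted p = 0.546 in Hdac1/2 cKD, log2 -0.21, SE 0.09, adjusted p = 0.165 in Sin3a KD).

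Of the Polo-like kinases and Aurora A, Plk1 rose in Hdac1/2 cKD and Aurka fell in Sin3a KD. Plk1 (chromosome 7, 122159439 to 122169873, forward strand), a kinase of mitotic entry, spindle poles and cytokinesis, stood at 1790.0, 1805 and 1836 in NC, at 2798, 2914 and 2843 in Hdac1/2 cKD and at 1999.8, 1928 and 1989.8 in Sin3a KD. The 3 Hdac1/2 cKD values were far above the others and close together, and those of Sin3a KD lay above NC by little. It rose to 158% of NC (log2 0.65, SE 0.09, adjusted p = 0.000445; called in 20 of 20) and was higher than in Sin3a KD (log2 0.53, SE 0.09, adjusted p = 0.00138; called in 20 of 20). Its mature sequence shares 15.2% of its 31-base words with the pseudogene Plk-ps1, whose own values were 4.66 to 49.0. Aurka (chromosome 2, 172356190 to 172370535, reverse strand), Aurora A, which matures the spindle poles, stood at 5267, 4174 and 5239 in NC, at 4678, 4479 and 4974 in Hdac1/2 cKD and at 3159, 3382 and 3185 in Sin3a KD. Sin3a KD was below every other library and Hdac1/2 cKD lay within the NC range. It fell to 66.3% of NC in Sin3a KD (log2 -0.59, SE 0.10, adjusted p = 0.00621; called in 17 of 20) and was higher in Hdac1/2 cKD than in Sin3a KD (log2 0.54, SE 0.10, adjusted p = 0.00328; called in 20 of 20). Tpx2, which activates Aurora A on the spindle, stood at 3947, 3819 and 3587 in NC, at 3319, 3487 and 3387 in Hdac1/2 cKD and at 3334, 3297 and 3395 in Sin3a KD. Both knockdowns lay below NC without passing (log2 -0.15, SE 0.09, adjusted p = 0.255 and log2 -0.18, SE 0.09, adjusted p = 0.229). Plk4, the kinase that starts centriole duplication, stood at 403, 371 and 392 in NC, at 304, 557 and 313 in Hdac1/2 cKD and at 346, 286 and 333 in Sin3a KD. Hdac1/2 cKD replicate 2 was the highest library, its group overlapped both others, and Sin3a KD lay below NC. No comparison passed (log2 -0.05, SE 0.22, adjusted p = 0.913 in Hdac1/2 cKD).

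**Figure D3:**
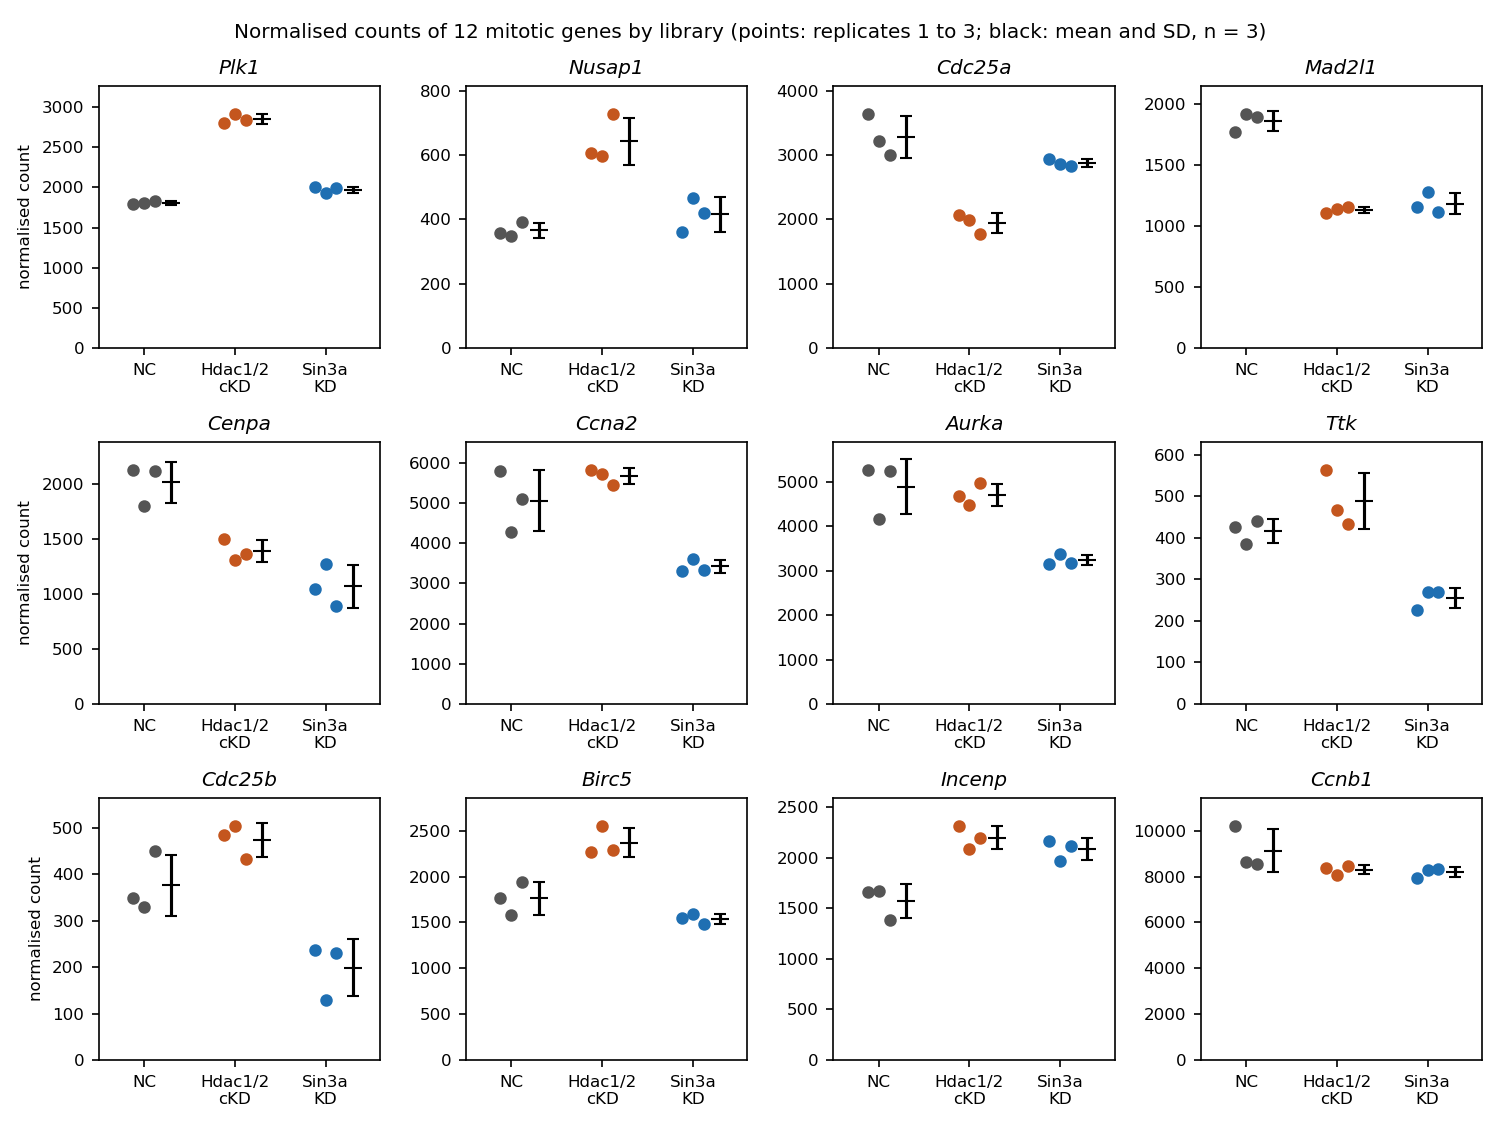
Normalised counts (y axis, from 0, own scale per panel) of 12 of the genes in the 3 groups; points are libraries in the order replicate 1 to 3, and black marks are the mean and SD of 3 libraries. Plk1 and Nusap1 are high in Hdac1/2 cKD alone, Ccna2, Aurka, Ttk and Cdc25b are low in Sin3a KD alone, Mad2l1 and Cenpa are low in both knockdowns, and Ccnb1 differs little.

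In the chromosomal passenger complex, which corrects faulty attachments and guides cytokinesis, 2 of 5 genes rose in Hdac1/2 cKD and 1 in Sin3a KD. These are 40% and 20%, against 7.81% and 3.60% of all tested genes. Limma called none lower. In Sin3a KD, however, 4 of the 5 changes were below 0, and 1 (Aurkb) was lower at an unadjusted p below 0.05. The summed count of the 5 lay between 5755 and 6343 in NC, between 7403 and 7710.5 in Hdac1/2 cKD and between 5969.8 and 6261 in Sin3a KD. Incenp (chromosome 19, 9872296 to 9899551, reverse strand), the scaffold of the complex, stood at 1662, 1675 and 1379.8 in NC, at 2313, 2083 and 2199 in Hdac1/2 cKD and at 2169, 1963 and 2119 in Sin3a KD. All 6 knockdown libraries were above all NC libraries, and the knockdowns overlapped. It rose in Hdac1/2 cKD (log2 0.49, SE 0.11, adjusted p = 0.00873; called in 20 of 20) and in Sin3a KD (log2 0.41, SE 0.11, adjusted p = 0.0351; called in 8 of 20), and the difference between them did not pass (log2 0.08, SE 0.11, adjusted p = 0.696, 95% confidence interval -0.16 to 0.31). Incenp had an adjusted p in Sin3a KD of 0.0530 without NC replicate 1, 0.0989 without NC replicate 3, 0.0507 without Hdac1/2 cKD replicate 1, 0.0553 without Hdac1/2 cKD replicate 2, 0.0521 without Hdac1/2 cKD replicate 3, 0.132 without Sin3a KD replicate 1 and 0.116 without Sin3a KD replicate 3. For Incenp the alternative settings spanned adjusted p-values of 0.0149 to 0.166. Birc5 (chromosome 11, 117849251 to 117855743, forward strand), survivin, stood at 1764, 1579 and 1943 in NC, at 2268, 2549.6 and 2292 in Hdac1/2 cKD and at 1551, 1586 and 1483 in Sin3a KD. Hdac1/2 cKD lay above every other library and Sin3a KD overlapped NC. It rose in Hdac1/2 cKD (log2 0.43, SE 0.11, adjusted p = 0.0160; called in 16 of 20) and was higher there than in Sin3a KD (log2 0.62, SE 0.11, adjusted p = 0.00166; called in 20 of 20). Birc5 had an adjusted p in Hdac1/2 cKD of 0.0831 without Hdac1/2 cKD replicate 2. For Birc5 the alternative settings spanned adjusted p-values of 0.00325 to 0.0831.

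Aurkb (chromosome 11, 69045647 to 69051664, forward strand), Aurora B, the kinase of the complex, stood at 950.1, 657 and 1001 in NC, at 1029.7, 965 and 994 in Hdac1/2 cKD and at 631, 577 and 576 in Sin3a KD. Sin3a KD was below the rest, with NC replicate 2 the lowest NC library, and Hdac1/2 cKD overlapped NC. Neither comparison with NC passed (log2 0.22, SE 0.16, adjusted p = 0.383 in Hdac1/2 cKD and log2 -0.52, SE 0.16, adjusted p = 0.0571 in Sin3a KD), while the 2 knockdowns differed (log2 0.74, SE 0.16, adjusted p = 0.00531; called in 20 of 20). Aurkb had an adjusted p in Sin3a KD of 0.00477 without NC replicate 2. For Aurkb the alternative settings spanned adjusted p-values of 0.00477 to 0.245. Cdca8, borealin, stood at 1910.2, 1844 and 1904 in NC, at 1965, 2082 and 1905 in Hdac1/2 cKD and at 1911, 1876 and 1776 in Sin3a KD. Its groups overlapped in every comparison and none passed (log2 0.07, SE 0.10, adjusted p = 0.662 and log2 -0.03, SE 0.10, adjusted p = 0.905). Aurkc, the germ cell Aurora kinase, was listed at 56.2, 0 and 62.4 in NC, at 0, 30.7 and 13.1 in Hdac1/2 cKD and at 0, 30.3 and 16.2 in Sin3a KD. It was at 0 in 1 library of each group and no comparison passed. Its transcript shares 53.2% of its 31-base words with the predicted gene Gm12463, so its level is uncertain.

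The 5 spindle assembly checkpoint genes were each called in at least 1 comparison, in either direction (26.9% of all tested genes were): Mad2l1 fell in both knockdowns, Ttk and Bub1b fell in Sin3a KD, Bub3 rose in Hdac1/2 cKD, and Bub1 was called between the knockdowns alone. Their summed count lay between 5706 and 5922 in NC, between 5534 and 5690.3 in Hdac1/2 cKD and between 4106 and 4632 in Sin3a KD, so every Sin3a KD library was below the rest. Mad2l1 (chromosome 6, 66535390 to 66547220, forward strand), which with Bub1b holds Cdc20 away from the APC/C, stood at 1767, 1918 and 1895 in NC, at 1103, 1143 and 1152 in Hdac1/2 cKD and at 1156, 1277 and 1113 in Sin3a KD. Every knockdown library was below every NC library, and the knockdowns overlapped. It was at 60.9% of NC in Hdac1/2 cKD (log2 -0.71, SE 0.11, adjusted p = 0.000701; called in 20 of 20) and at 63.5% in Sin3a KD (log2 -0.66, SE 0.11, adjusted p = 0.00460; called in 17 of 20). The difference between the knockdowns was log2 -0.06, SE 0.11, adjusted p = 0.767, with a 95% confidence interval of -0.29 to 0.17.

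Ttk (chromosome 9, 83834689 to 83872389, forward strand), the Mps1 kinase that starts checkpoint signalling, stood at 427, 385 and 440.4 in NC, at 563, 468 and 434 in Hdac1/2 cKD and at 227, 269 and 269 in Sin3a KD. Sin3a KD was below all other libraries, and Hdac1/2 cKD replicate 3 lay within the NC range. It fell to 61.0% of NC in Sin3a KD (log2 -0.71, SE 0.17, adjusted p = 0.0213; called in 12 of 20) and was higher in Hdac1/2 cKD than in Sin3a KD (log2 0.93, SE 0.17, adjusted p = 0.00211; called in 19 of 20). Ttk had an adjusted p in Sin3a KD of 0.0613 without NC replicate 1, 0.0557 without NC replicate 3, 0.0967 without Sin3a KD replicate 1 and 0.0602 without Sin3a KD replicate 3. For Ttk the alternative settings spanned adjusted p-values of 0.0163 to 0.222. Bub1b (chromosome 2, 118598211 to 118641591, forward strand), BubR1, stood at 1768, 1447 and 1580.4 in NC, at 1423, 1560.3 and 1393 in Hdac1/2 cKD and at 1089, 1174 and 1308 in Sin3a KD. Its Sin3a KD values were below all NC values, and Hdac1/2 cKD overlapped NC. It fell in Sin3a KD by a narrow margin (log2 -0.42, SE 0.12, adjusted p = 0.0434; called in 5 of 20). Bub1b had an adjusted p in Sin3a KD of 0.132 without NC replicate 1, 0.0784 without NC replicate 3, 0.0623 without Hdac1/2 cKD replicate 1, 0.0644 without Hdac1/2 cKD replicate 2, 0.0603 without Hdac1/2 cKD replicate 3, 0.168 without Sin3a KD replicate 1, 0.0909 without Sin3a KD replicate 2 and 0.0658 without Sin3a KD replicate 3. For Bub1b the alternative settings spanned adjusted p-values of 0.0250 to 0.337. Bub1 (chromosome 2, 127801122 to 127831865, reverse strand), a kinase that recruits checkpoint proteins to kinetochores, stood at 1035, 1488 and 1014 in NC, at 1465, 1518 and 1463 in Hdac1/2 cKD and at 855, 1079 and 784 in Sin3a KD. NC replicate 2 lay among the Hdac1/2 cKD values and the other NC libraries far below it. Against NC it did not pass (log2 0.35, SE 0.16, adjusted p = 0.159 and log2 -0.37, SE 0.16, adjusted p = 0.178), and it was higher in Hdac1/2 cKD than in Sin3a KD (log2 0.72, SE 0.16, adjusted p = 0.00726; called in 19 of 20). Bub1 had an adjusted p in Hdac1/2 cKD of 0.0244 without NC replicate 2. For Bub1 the alternative settings spanned adjusted p-values of 0.0244 to 0.444. Bub3 (chromosome 7, 131560222 to 131571895, forward strand), the partner of Bub1 and Bub1b, stood at 819, 685 and 777 in NC, at 979, 1002 and 1155 in Hdac1/2 cKD and at 779, 834 and 755 in Sin3a KD. Hdac1/2 cKD was above all other libraries, and NC and Sin3a KD overlapped. It rose in Hdac1/2 cKD (log2 0.46, SE 0.13, adjusted p = 0.0267; called in 13 of 20) and was higher than in Sin3a KD (log2 0.40, SE 0.13, adjusted p = 0.0452; called in 9 of 20). Bub3 had an adjusted p in Hdac1/2 cKD of 0.0681 without NC replicate 2, 0.0508 without Hdac1/2 cKD replicate 1, 0.0664 without Hdac1/2 cKD replicate 2 and 0.120 without Hdac1/2 cKD replicate 3. For Bub3 the alternative settings spanned adjusted p-values of 0.00718 to 0.120. Bub3 had an adjusted p between the knockdowns of 0.0734 without Hdac1/2 cKD replicate 1, 0.0950 without Hdac1/2 cKD replicate 2, 0.172 without Hdac1/2 cKD replicate 3, 0.123 without Sin3a KD replicate 1, 0.0673 without Sin3a KD replicate 2 and 0.128 without Sin3a KD replicate 3. For Bub3 the alternative settings spanned adjusted p-values of 0.0270 to 0.172.

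None of the 4 genes that run the exit from mitosis was called by limma in any comparison; at an unadjusted p below 0.05 there were 0 in Hdac1/2 cKD, 1 in Sin3a KD (Cdc20, lower) and 1 between the knockdowns (Pttg1, higher in Hdac1/2 cKD). Cdc20, the activator of the APC/C at anaphase, stood at 6460.4, 4714 and 5761 in NC, at 5330.3, 5264 and 5566 in Hdac1/2 cKD and at 5267, 4083 and 4726 in Sin3a KD. The groups overlapped throughout, with NC replicate 1 highest and Sin3a KD replicate 2 lowest, and the change in Sin3a KD was log2 -0.26, SE 0.12, adjusted p = 0.208. Cdc20 had an adjusted p in Sin3a KD of 0.0451 without NC replicate 2. For Cdc20 the alternative settings spanned adjusted p-values of 0.0451 to 0.480. Espl1, separase, which cuts cohesin, stood at 5036, 3639 and 3505 in NC, at 3989.6, 3753 and 3544 in Hdac1/2 cKD and at 3539, 3298 and 3962 in Sin3a KD. NC replicate 1 was the highest library, the rest lay close together and no comparison passed (log2 -0.09, SE 0.13, adjusted p = 0.689 and log2 -0.16, SE 0.13, adjusted p = 0.501). Fzr1, the late APC/C activator, ranged from 595 to 1023, and Pttg1, securin, the inhibitor of separase, from 322 to 659.7. Pttg1 was above Sin3a KD in every Hdac1/2 cKD library without passing (log2 0.60, SE 0.22, adjusted p = 0.0709). Pttg1 had an adjusted p between the knockdowns of 0.0412 without NC replicate 1 and 0.0408 without Sin3a KD replicate 2. For Pttg1 the alternative settings spanned adjusted p-values of 0.0233 to 0.250.

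At the centromere and kinetochore, 2 of 7 genes fell in Hdac1/2 cKD and 1 in Sin3a KD. These are 28.6% and 14.3%, against 7.80% and 4.36% of all tested genes. Limma called none higher, but in Hdac1/2 cKD 2 (Ndc80 and Spc25) were higher at an unadjusted p below 0.05. The median log2 change of the 7 there was 0.11, against 0.03 for all tested genes. Cenpa (chromosome 5, 30666777 to 30674830, forward strand), the histone H3 variant that marks centromeres, stood at 2124, 1798 and 2119 in NC, at 1496, 1304 and 1366 in Hdac1/2 cKD and at 1042, 1275 and 887 in Sin3a KD. Every knockdown library was below every NC library, and Sin3a KD was below Hdac1/2 cKD throughout. It was at 69.0% of NC in Hdac1/2 cKD (log2 -0.53, SE 0.14, adjusted p = 0.0186; called in 14 of 20) and at 53.0% in Sin3a KD (log2 -0.93, SE 0.14, adjusted p = 0.00319; called in 17 of 20), and the difference between the knockdowns did not pass (log2 0.39, SE 0.14, adjusted p = 0.0680). Cenpa had an adjusted p in Hdac1/2 cKD of 0.0589 without NC replicate 1, 0.0767 without Hdac1/2 cKD replicate 2 and 0.0619 without Hdac1/2 cKD replicate 3. For Cenpa the alternative settings spanned adjusted p-values of 0.0121 to 0.0956. Cenpa had an adjusted p between the knockdowns of 0.0225 without Sin3a KD replicate 2. For Cenpa the alternative settings spanned adjusted p-values of 0.0225 to 0.253. Cenpe (chromosome 3, 135212537 to 135273611, forward strand), a kinetochore motor that brings chromosomes to the spindle equator, stood at 5937, 5316 and 4259 in NC, at 4037, 3639 and 3599.97 in Hdac1/2 cKD and at 4779, 4396 and 4307 in Sin3a KD. Hdac1/2 cKD was below every other library, but only just below NC replicate 3. It fell in Hdac1/2 cKD (log2 -0.45, SE 0.12, adjusted p = 0.0195; called in 14 of 20) without passing in Sin3a KD (log2 -0.19, SE 0.12, adjusted p = 0.344). Cenpe had an adjusted p in Hdac1/2 cKD of 0.0725 without NC replicate 1, 0.0730 without Hdac1/2 cKD replicate 2 and 0.0753 without Hdac1/2 cKD replicate 3. For Cenpe the alternative settings spanned adjusted p-values of 0.00228 to 0.0980.

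Ndc80 (chromosome 17, 71496100 to 71526857, reverse strand) is the microtubule-binding subunit of the complex it names, and stood at 793, 823 and 795 in NC, at 1015, 996 and 982 in Hdac1/2 cKD and at 695, 740.2 and 757 in Sin3a KD. Hdac1/2 cKD was above and Sin3a KD below all NC values. Neither step passed against NC (log2 0.31, SE 0.11, adjusted p = 0.0853 and log2 -0.14, SE 0.11, adjusted p = 0.502), and Ndc80 was higher in Hdac1/2 cKD than in Sin3a KD (log2 0.45, SE 0.11, adjusted p = 0.0159; called in 15 of 20). Ndc80 had an adjusted p between the knockdowns of 0.0575 without Hdac1/2 cKD replicate 1, 0.0585 without Hdac1/2 cKD replicate 2 and 0.0707 without Sin3a KD replicate 1. For Ndc80 the alternative settings spanned adjusted p-values of 0.0115 to 0.187. Spc25, another subunit of that complex, stood at 182, 222 and 313 in NC, at 314, 382 and 422 in Hdac1/2 cKD and at 279, 297 and 294 in Sin3a KD. Hdac1/2 cKD replicate 1 was barely above NC replicate 3, and the difference did not pass (log2 0.66, SE 0.21, adjusted p = 0.0517). Spc25 had an adjusted p in Hdac1/2 cKD of 0.0117 without NC replicate 3. For Spc25 the alternative settings spanned adjusted p-values of 0.0117 to 0.206. The other subunits Nuf2 and Spc24 ranged from 136 to 268 and from 168 to 264 and did not pass, so the 4 subunits gave 1 call in all, that of Ndc80 between the knockdowns. Cenpf, a large kinetochore protein, stood at 709.9, 1228 and 552 in NC, at 1664, 939 and 799.96 in Hdac1/2 cKD and at 834, 932 and 1439 in Sin3a KD. The groups overlapped and the NC libraries spread wider than for any other of the 39 genes but Aurkc (coefficient of variation 42.6%), and no comparison passed (log2 0.46, SE 0.36, adjusted p = 0.444 in Hdac1/2 cKD and log2 0.40, SE 0.36, adjusted p = 0.542 in Sin3a KD).

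Of 6 factors of spindle, chromosome structure and cytokinesis, 2 rose and 1 fell in Hdac1/2 cKD. These are 33.3% and 16.7%, against 7.81% and 7.80% of all tested genes. Limma called none in Sin3a KD against NC, where 1 (Top2a, higher) had an unadjusted p below 0.05. Nusap1 (chromosome 2, 119618298 to 119651244, forward strand), which bundles spindle microtubules near chromosomes, stood at 359, 348 and 391 in NC, at 607, 597 and 728 in Hdac1/2 cKD and at 359.7, 466 and 421 in Sin3a KD. Hdac1/2 cKD was above all other libraries, and NC and Sin3a KD overlapped. It rose to 176% of NC (log2 0.81, SE 0.16, adjusted p = 0.00417; called in 20 of 20), the largest called rise of the 39 genes in Hdac1/2 cKD, and was higher than in Sin3a KD (log2 0.63, SE 0.16, adjusted p = 0.0148; called in 16 of 20). Nusap1 had an adjusted p between the knockdowns of 0.0720 without Hdac1/2 cKD replicate 3 and 0.0748 without Sin3a KD replicate 1. For Nusap1 the alternative settings spanned adjusted p-values of 0.0105 to 0.0841. Top2a (chromosome 11, 98992943 to 99024189, reverse strand), topoisomerase II alpha, which untangles sister chromatids, stood at 3969, 4687 and 4361 in NC, at 5663, 6686 and 5533 in Hdac1/2 cKD and at 4949, 5921 and 5324 in Sin3a KD. Both knockdowns lay above NC and overlapped each other. It rose in Hdac1/2 cKD (log2 0.46, SE 0.11, adjusted p = 0.0113; called in 16 of 20) without passing in Sin3a KD (log2 0.31, SE 0.11, adjusted p = 0.0872). Top2a had an adjusted p in Hdac1/2 cKD of 0.0661 without Hdac1/2 cKD replicate 2. For Top2a the alternative settings spanned adjusted p-values of 0.00281 to 0.0735. Kif20a, a motor of the central spindle, stood at 4739, 3864 and 4010.4 in NC, at 3347, 3118 and 3386 in Hdac1/2 cKD and at 3812, 3944 and 3604 in Sin3a KD. Hdac1/2 cKD was below every other library. It fell in Hdac1/2 cKD (log2 -0.35, SE 0.10, adjusted p = 0.0290; called in 11 of 20), the smallest called change of the set, and 29.3% of its exons overlap Cdc23 on the opposite strand, whose change was log2 0.05. Kif20a had an adjusted p in Hdac1/2 cKD of 0.0977 without NC replicate 1, 0.0709 without Hdac1/2 cKD replicate 1, 0.116 without Hdac1/2 cKD replicate 2 and 0.0655 without Hdac1/2 cKD replicate 3. For Kif20a the alternative settings spanned adjusted p-values of 0.0200 to 0.143.

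Kif23, the motor subunit of centralspindlin, stood at 5131, 5284 and 4241 in NC, at 4147, 4203 and 3711 in Hdac1/2 cKD and at 5132, 4692 and 4429 in Sin3a KD. Hdac1/2 cKD lay below the other libraries, by little for NC replicate 3, with no call (log2 -0.28, SE 0.11, adjusted p = 0.0979). Kif23 had an adjusted p in Hdac1/2 cKD of 0.0250 without NC replicate 3. For Kif23 the alternative settings spanned adjusted p-values of 0.0250 to 0.304. Prc1, which crosslinks the central spindle, stood at 4787, 4928 and 3857 in NC, at 4825, 4708 and 4479.6 in Hdac1/2 cKD and at 4683, 4979 and 4311 in Sin3a KD. The groups overlapped in every comparison and none passed (log2 0.05, SE 0.11, adjusted p = 0.780 and log2 0.05, SE 0.11, adjusted p = 0.831). Kif11, the motor that pushes spindle poles apart, ranged from 1861 to 2413 with no call (log2 -0.21, SE 0.11, adjusted p = 0.216 in Hdac1/2 cKD). Of the 3 motors of the group only Kif20a was called.

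**Figure D4:**
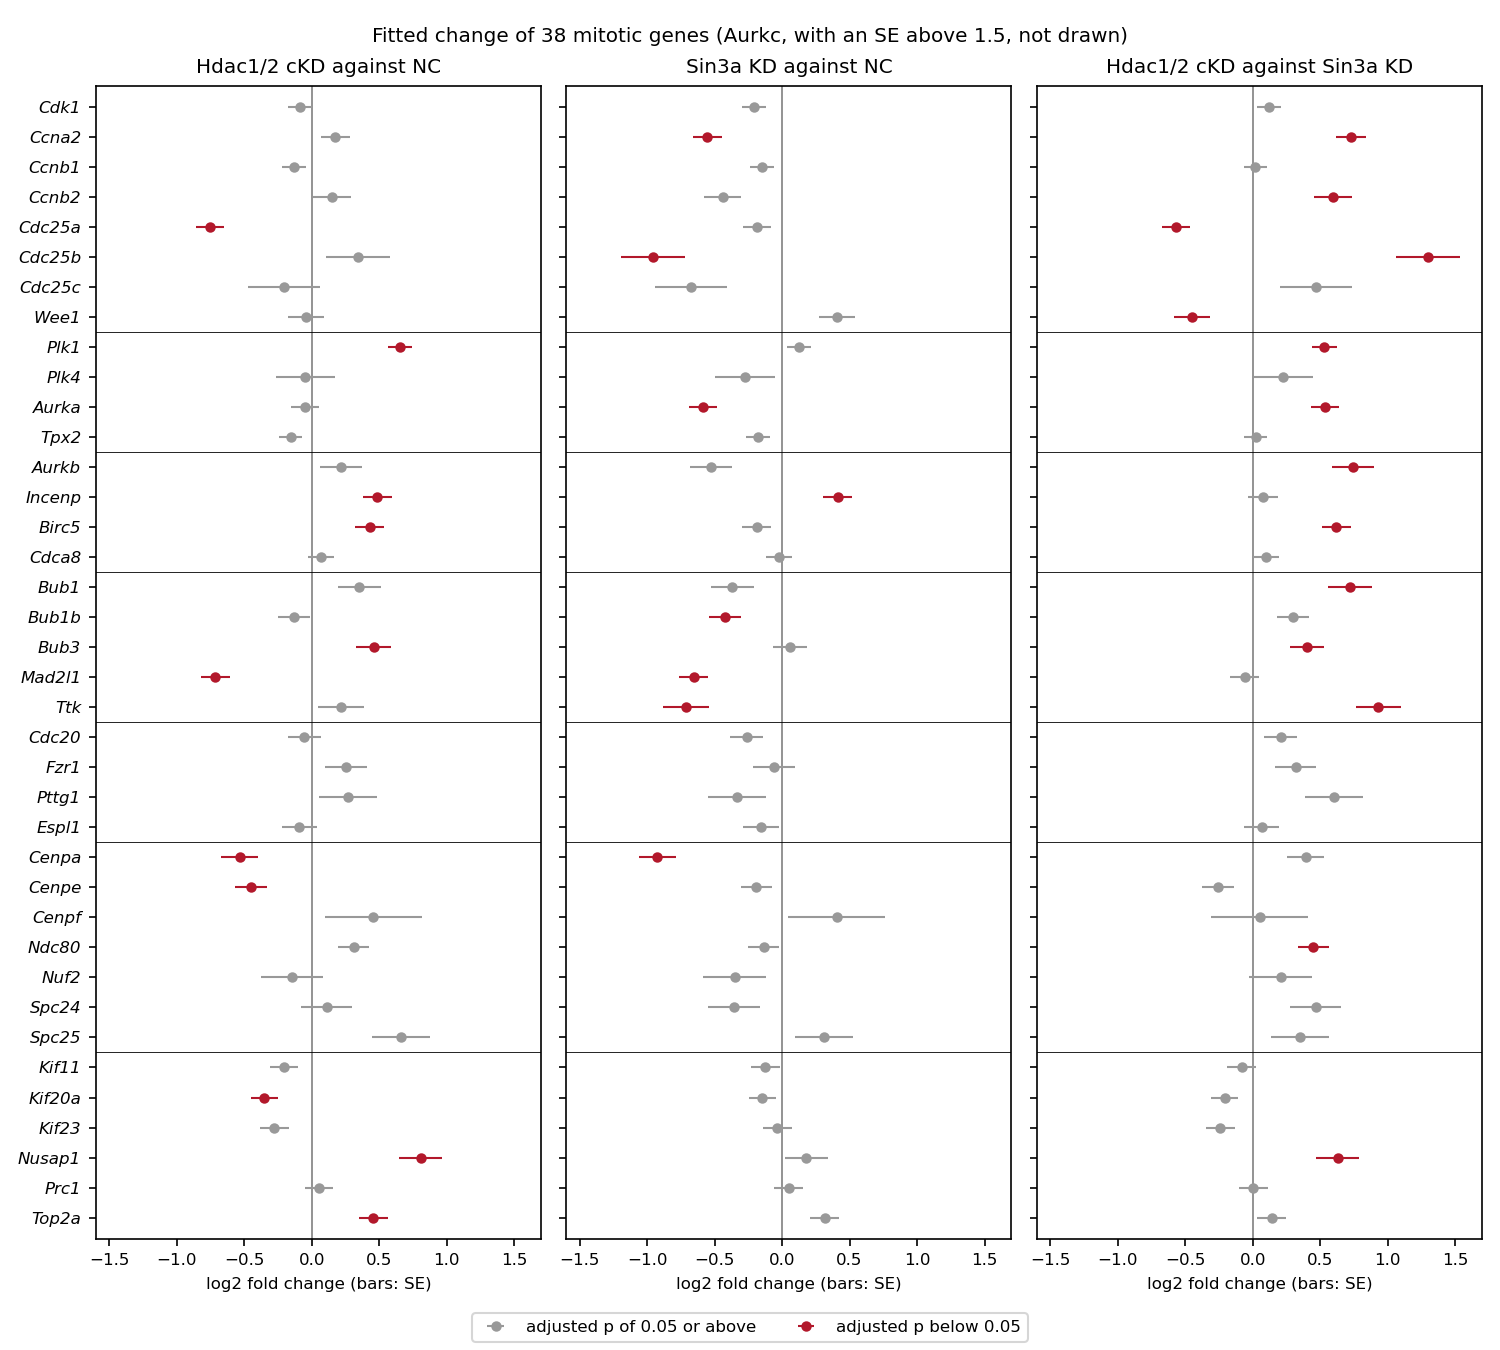
Fitted log2 fold change with its SE for 38 of the genes (rows, grouped by role; Aurkc is left out because its SE exceeds 1.5) in the 3 comparisons; red points have an adjusted p below 0.05. In Sin3a KD against NC 7 of the 8 red points lie left of 0, and in Hdac1/2 cKD against Sin3a KD 12 of 14 lie right of it.

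The direct comparison is the test of whether the knockdowns differ. It called Ccna2, Ccnb2, Cdc25b, Plk1, Aurka, Aurkb, Birc5, Bub1, Bub3, Ttk, Ndc80 and Nusap1 higher in Hdac1/2 cKD than in Sin3a KD, and Cdc25a and Wee1 lower. The 12 include cyclins A2 and B2, 3 of the 5 checkpoint genes and the kinases Plk1, Aurka and Aurkb. Of the 14 calls, 7 held in every alternative setting: Ccna2, Cdc25a, Cdc25b, Plk1, Aurka, Aurkb and Birc5. Of the 11 calls in Hdac1/2 cKD against NC, 5 held in every setting (Plk1, Nusap1, Incenp, Cdc25a and Mad2l1). None of the 8 calls in Sin3a KD against NC did: all 8 were lost in a fit without trend and robust variances, in one that included lane, and when the NC and Sin3a KD libraries alone on their lanes (replicate 1 of each) were dropped.

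The groups were not spread evenly over sequencing lanes: replicates 1 to 3 were on lanes 5, 2 and 3 for NC, on 2, 2 and 3 for Hdac1/2 cKD, and on 4, 3 and 3 for Sin3a KD. Within lane 2 (2 Hdac1/2 cKD libraries and 1 NC library) all 11 genes called in Hdac1/2 cKD kept their direction, with log2 differences of 0.39 to 0.79 for those called higher and -0.77 to -0.26 for those called lower. Within lane 3 they lay at 0.24 to 0.90 and -0.76 to -0.24 (1 library each). For Sin3a KD, lane 3 alone holds both groups (2 libraries and 1 NC library), and its 8 called genes kept their direction, from -1.38 to -0.35 and 0.56 for Incenp. For the 14 genes called between the knockdowns, lane 3 gave 0.39 to 1.33 and -0.68 to -0.52. These libraries are among those that made the calls, so the shared direction is not a separate test.

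Levels can be compared between genes only per length, here as normalised counts per kb of the longest annotated coding transcript, which may not be the one the embryo makes. In NC, Ccnb1 led with 3664 ± 375.9 per kb, followed by Cdc20 (3148 ± 490.3) and Aurka (2569 ± 327.2), and the mean ± SD ranges of neighbours in this order overlap. Ccna2 came next at 1707 ± 254.7 per kb, below the range of Aurka, and Prc1, Kif23 and Cenpa at 1495 ± 192.3, 1438 ± 165.8 and 1374 ± 127.7, whose SD ranges overlap. The lowest levels per kb were those of Aurkc (28.2 ± 24.5), Cenpf (74.6 ± 31.7), Nuf2 (98.6 ± 13.1) and Nusap1 (103.8 ± 6.35), where again neighbours overlap. In Hdac1/2 cKD, Plk1 went from 823 ± 10.7 to 1297 ± 26.7 per kb. In Sin3a KD, Cenpa was at 729 ± 133.1 per kb. The median coefficient of variation of the 39 genes between libraries of a group was 10.6% in NC, 6.58% in Hdac1/2 cKD and 7.20% in Sin3a KD.

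**Figure D5:**
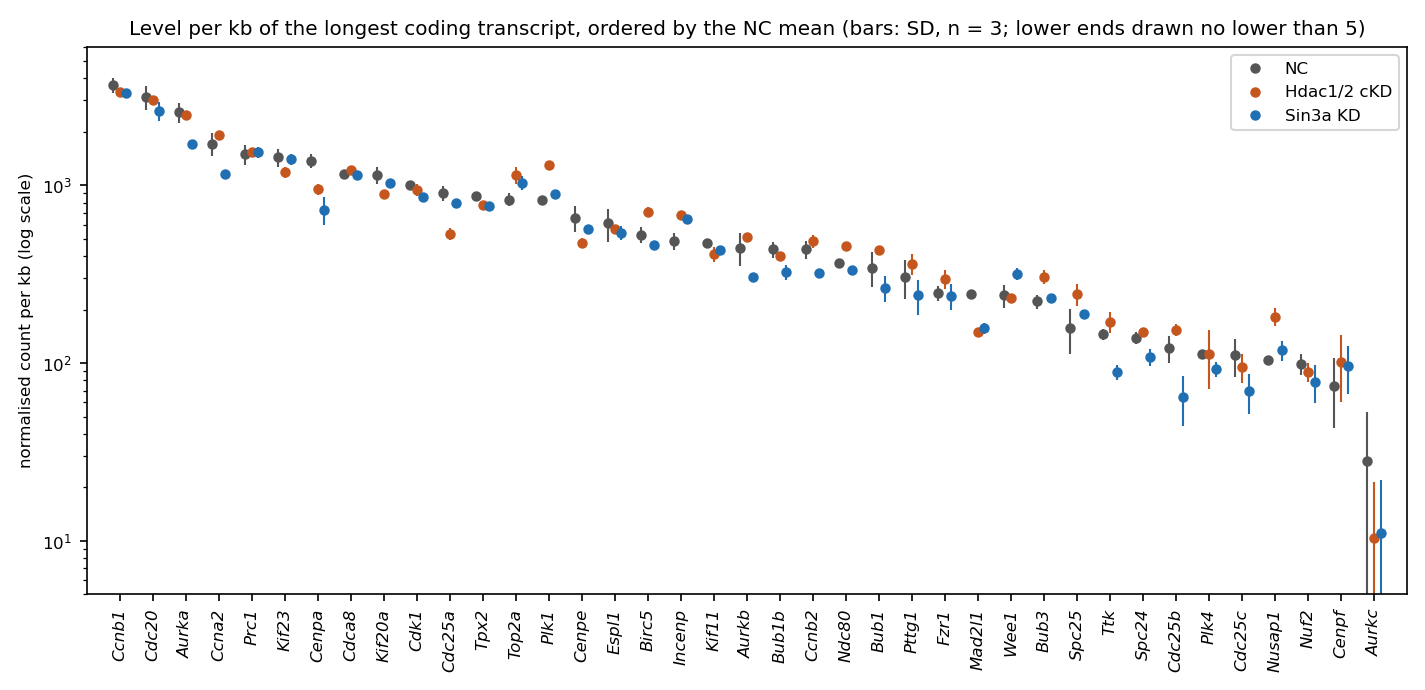
Mean normalised count per kb of the longest coding transcript (y axis, log scale) for each gene in the 3 groups, ordered by the NC mean, with SD bars of 3 libraries cut at 5. Ccnb1, Cdc20 and Aurka are highest and Aurkc lowest, and Plk1, Cenpa and Cdc25a show groups apart.

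Beyond the 39 genes, other parts of the same machinery were counted from 5 lists chosen by function. They too were written with earlier results of these data known. The all-gene shares set beside their counts again include weakly expressed genes. Among the 9757 genes with a mean of at least 50, larger shares were called in every comparison and direction. In Hdac1/2 cKD, for example, 1100 of these were lower. A list share a little above the all-gene share is therefore not read as an excess. Of 22 tested regulators of mitotic entry, 3 rose and 3 fell in Hdac1/2 cKD (13.6% each way, against 7.81% and 7.80% of all tested genes). Foxm1, a factor that drives G2 and mitotic genes, rose from 475 ± 81.0 to 825 ± 129 (log2 0.80, SE 0.17, adjusted p = 0.00703). Gtse1, a microtubule-binding protein of mitosis, rose from 902 ± 83.3 to 1619 ± 193 (log2 0.84, SE 0.12, adjusted p = 0.000702), and Lin37, a MuvB subunit, fell from 392 ± 23.2 to 177 ± 64.6 (log2 -1.20, SE 0.29, adjusted p = 0.0127). In Sin3a KD 1 rose and 1 fell (4.55% each way, near the 3.60% and 4.36% of all genes): Plk2, another Polo-like kinase, rose (log2 1.08, SE 0.23, adjusted p = 0.0132) and Cks2, a Cdk1-binding protein, fell (log2 -0.35, SE 0.10, adjusted p = 0.0419). Between the knockdowns 3 were higher (13.6%, against 8.49%) and 4 lower in Hdac1/2 cKD (18.2%, against 8.78%), among them Foxm1 (log2 1.13, SE 0.17, adjusted p = 0.000670), Gtse1 (log2 0.53, SE 0.12, adjusted p = 0.0105) and Ensa, which once phosphorylated inhibits the phosphatase that opposes Cdk1 (log2 -0.56, SE 0.14, adjusted p = 0.0125). Lin37 had an adjusted p in Hdac1/2 cKD of 0.0505 without Hdac1/2 cKD replicate 1 and 0.0590 without Hdac1/2 cKD replicate 3 (range 0.00732 to 0.0590 over the alternative settings). Plk2 had an adjusted p in Sin3a KD of 0.0528 without NC replicate 1, 0.0599 without Sin3a KD replicate 1 and 0.0664 without Sin3a KD replicate 3 (range 0.00758 to 0.214 over the alternative settings). Cks2 had an adjusted p in Sin3a KD of 0.0598 without Hdac1/2 cKD replicate 1, 0.0621 without Hdac1/2 cKD replicate 2, 0.0609 without Hdac1/2 cKD replicate 3, 0.116 without NC replicate 1, 0.0812 without NC replicate 3, 0.114 without Sin3a KD replicate 1, 0.0613 without Sin3a KD replicate 2 and 0.152 without Sin3a KD replicate 3 (range 0.0254 to 0.231 over the alternative settings). Gtse1 had an adjusted p between the knockdowns of 0.0566 without Hdac1/2 cKD replicate 3 (range 0.00531 to 0.0566 over the alternative settings). Ensa had an adjusted p between the knockdowns of 0.0540 without Hdac1/2 cKD replicate 2 and 0.0684 without Sin3a KD replicate 1 (range 0.00933 to 0.161 over the alternative settings).

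Of 18 tested APC/C subunits and partners, none rose and 2 fell in Hdac1/2 cKD (11.1%, against 7.80% of all genes; 1 was higher at an unadjusted p below 0.05): Fbxo5, the interphase inhibitor of the APC/C, from 1223 ± 19.6 to 736 ± 57.7 (log2 -0.73, SE 0.12, adjusted p = 0.00149) and the subunit Cdc27 from 3079.6 ± 502 to 1883 ± 105 (log2 -0.70, SE 0.13, adjusted p = 0.00275). In Sin3a KD limma called none (4 lower and 0 higher at an unadjusted p below 0.05), and between the knockdowns Ube2d1 (log2 1.19, SE 0.27, adjusted p = 0.00783) and Cdc26 (log2 0.80, SE 0.20, adjusted p = 0.0151) were higher (11.1%, against 8.49%) and Cdc27 (log2 -0.40, SE 0.13, adjusted p = 0.0466) lower (5.56%, against 8.78%) in Hdac1/2 cKD. Of 36 further centromere, kinetochore and checkpoint genes, 1 rose and 4 fell in Hdac1/2 cKD (2.78% and 11.1%, against 7.81% and 7.80% of all genes). Cenph of the inner kinetochore (log2 -0.64, SE 0.14, adjusted p = 0.00633), Dsn1 of the Mis12 complex (log2 -0.56, SE 0.12, adjusted p = 0.00652) and Mad2l1bp, which takes Mad2 off its partners (log2 -0.65, SE 0.15, adjusted p = 0.0103), had the lowest adjusted p. In Sin3a KD none rose (2 at an unadjusted p below 0.05) and 2 fell (5.56%, against 4.36%), Mad2l1bp (log2 -0.65, SE 0.15, adjusted p = 0.0184) and the kinetochore protein Zwint (log2 -0.58, SE 0.13, adjusted p = 0.0205). Between the knockdowns 5 were higher (13.9%, against 8.49%) and 4 lower in Hdac1/2 cKD (11.1%, against 8.78%), among them Pmf1 of the Mis12 complex (log2 1.13, SE 0.19, adjusted p = 0.00150), higher, and Sgol2, the protector of centromeric cohesin (log2 -0.59, SE 0.13, adjusted p = 0.00672), lower. Cdc26 had an adjusted p between the knockdowns of 0.0684 without Hdac1/2 cKD replicate 2 and 0.0689 without Sin3a KD replicate 1 (range 0.00842 to 0.144 over the alternative settings). Cdc27 had an adjusted p between the knockdowns of 0.0894 without Hdac1/2 cKD replicate 1, 0.0976 without Hdac1/2 cKD replicate 2, 0.148 without Hdac1/2 cKD replicate 3, 0.0550 without NC replicate 1, 0.0926 without Sin3a KD replicate 1, 0.171 without Sin3a KD replicate 2 and 0.0551 without Sin3a KD replicate 3 (range 0.0157 to 0.171 over the alternative settings). Mad2l1bp had an adjusted p in Sin3a KD of 0.0605 without NC replicate 1, 0.0596 without NC replicate 3, 0.0541 without Sin3a KD replicate 1, 0.0516 without Sin3a KD replicate 2 and 0.0700 without Sin3a KD replicate 3 (range 0.00221 to 0.138 over the alternative settings). Zwint had an adjusted p in Sin3a KD of 0.0555 without NC replicate 1, 0.0642 without NC replicate 3, 0.0766 without Sin3a KD replicate 1 and 0.0917 without Sin3a KD replicate 3 (range 0.00558 to 0.158 over the alternative settings).

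Of 42 further spindle, centrosome and cytokinesis genes, 5 rose in Hdac1/2 cKD (11.9%, against 7.81% of all genes) and none fell (by limma; 1 was lower at an unadjusted p below 0.05). Ckap5, a microtubule polymerase, rose from 748 ± 113 to 1180.4 ± 67.9 (log2 0.67, SE 0.13, adjusted p = 0.00471), and Clasp1, which stabilises microtubule plus ends, from 203 ± 50.3 to 407 ± 57.6 (log2 1.02, SE 0.22, adjusted p = 0.00676). Dlgap5, a spindle protein regulated by Aurora A, also rose (log2 0.67, SE 0.16, adjusted p = 0.0139). In Sin3a KD the 1 call was Racgap1, the partner of Kif23, which fell (log2 -0.56, SE 0.13, adjusted p = 0.0215); this is 2.38% of the list, against 4.36% of all genes. Between the knockdowns 6 were higher in Hdac1/2 cKD (14.3%, against 8.49%), led by Fam83d (log2 0.86, SE 0.16, adjusted p = 0.00237), Ckap5 (log2 0.71, SE 0.13, adjusted p = 0.00265) and Dlgap5 (log2 0.85, SE 0.16, adjusted p = 0.00310). Of 20 cohesin and condensin genes, Ncapd2 of condensin rose (log2 0.64, SE 0.14, adjusted p = 0.00699) in Hdac1/2 cKD. Rad21, the cohesin subunit that separase cuts, fell there (log2 -0.30, SE 0.09, adjusted p = 0.0346). That is 5% each way, below the 7.81% and 7.80% of all genes. In Sin3a KD 3 cohesin genes fell (15.0%, against 4.36%): the core subunit Smc1a (log2 -0.51, SE 0.11, adjusted p = 0.0126), Cdca5, sororin (log2 -0.49, SE 0.12, adjusted p = 0.0298), and Rad21 (log2 -0.34, SE 0.09, adjusted p = 0.0308). Between the knockdowns 4 were higher (20.0%, against 8.49%) and 2 lower in Hdac1/2 cKD (10%, against 8.78%), led by the cohesin subunit Stag2, lower (log2 -0.47, SE 0.11, adjusted p = 0.0129), and Cdca5 (log2 0.49, SE 0.12, adjusted p = 0.0155) and Ncapg of condensin (log2 0.63, SE 0.16, adjusted p = 0.0184), higher. Dlgap5 had an adjusted p in Hdac1/2 cKD of 0.0549 without Hdac1/2 cKD replicate 2 and 0.0724 without Hdac1/2 cKD replicate 3 (range 0.00673 to 0.0724 over the alternative settings). Racgap1 had an adjusted p in Sin3a KD of 0.0748 without NC replicate 1, 0.0677 without Sin3a KD replicate 1 and 0.104 without Sin3a KD replicate 3 (range 0.0150 to 0.189 over the alternative settings). Rad21 had an adjusted p in Hdac1/2 cKD of 0.0810 without Hdac1/2 cKD replicate 1, 0.0917 without Hdac1/2 cKD replicate 2, 0.123 without Hdac1/2 cKD replicate 3, 0.103 without NC replicate 1, 0.0615 without NC replicate 2 and 0.0543 without Sin3a KD replicate 1 (range 0.0185 to 0.145 over the alternative settings). Rad21 had an adjusted p in Sin3a KD of 0.0532 without Hdac1/2 cKD replicate 2, 0.0930 without NC replicate 1, 0.104 without Sin3a KD replicate 1 and 0.122 without Sin3a KD replicate 3 (range 0.0249 to 0.281 over the alternative settings). Smc1a had an adjusted p in Sin3a KD of 0.0524 without Sin3a KD replicate 1 and 0.0570 without Sin3a KD replicate 3 (range 0.00932 to 0.111 over the alternative settings). Cdca5 had an adjusted p in Sin3a KD of 0.0888 without NC replicate 1, 0.0835 without NC replicate 3, 0.101 without Sin3a KD replicate 1 and 0.114 without Sin3a KD replicate 3 (range 0.00920 to 0.213 over the alternative settings). Cdca5 had an adjusted p between the knockdowns of 0.0740 without Hdac1/2 cKD replicate 1, 0.0549 without Sin3a KD replicate 1 and 0.0590 without Sin3a KD replicate 3 (range 0.00651 to 0.0797 over the alternative settings). Stag2 had an adjusted p between the knockdowns of 0.0628 without Hdac1/2 cKD replicate 1 and 0.0536 without Sin3a KD replicate 2 (range 0.00266 to 0.0910 over the alternative settings). Ncapg had an adjusted p between the knockdowns of 0.0783 without Hdac1/2 cKD replicate 1, 0.0519 without Hdac1/2 cKD replicate 2, 0.0555 without Sin3a KD replicate 1 and 0.0727 without Sin3a KD replicate 3 (range 0.0135 to 0.218 over the alternative settings). Of the calls with the lowest adjusted p, up to 3 per list and comparison, 9 of 13 in Hdac1/2 cKD, none of 8 in Sin3a KD and 3 of 15 between the knockdowns held in every alternative setting.

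Sequence shared with other genes limits some of these levels. At least 10% of their 31-base words were also found in another gene for 9 of the 39. Besides Plk1, Aurkc, Kif20a and Ccna2, these were Ccnb1 (40.2%, with Ccnb1-ps), Cdc20 (25.1%, with Gm7856), Prc1 (25.1%, with Rccd1 on the opposite strand), Plk4 (10.4%, with Gm9742) and Ndc80 (10.1%, with 2700099C18Rik). How reads were divided between such copies, and whether strand was used, is not given in the sources used here.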

How the data were processed

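Polyadenylated RNA was measured in 9 libraries, 3 per group. The authors deposited a table of normalised counts, a signal per gene divided by a scaling factor of each library; Salmon, DESeq2 and GRCm38 are named per the submitters' processing notes, without versions or roles, and the annotation is not given in the sources used here. RNA of 2 fluorescent proteins was added before extraction, per the labels; 0 rows of the table used here carry their names, so the authors' scaling was not checked against added RNA, and every fold change rests on it. The 1 row without a gene name (0.00543% to 0.00896% of a library) was left out.

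Genes with at least 10 in at least 3 libraries (13343) were tested with limma 3.58.1 (R 4.3.3, trend and robust variances) on log2(value + 1), over all 9 libraries with 1 mean per group (6 residual degrees of freedom). The values are not whole reads, so no count model was used. Depth was estimated from the step between the most common low values. The fit was tested on simulated data. Called members, and a fixed set of uncalled ones for each role, were given in every library; up to 3 called genes with the lowest adjusted p were named per further list and comparison, except 1 that is not reported here. The members and lists were chosen with earlier results of these data known. Coordinates are GRCm38 (GENCODE vM21), and promoters are from RefSeq (GRCm38.p6). Tables and plots used Python 3.11.15, pandas 2.3.3 and matplotlib 3.10.9.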

Additional observations from a re-analysis of the deposited data

How the results depend on the processing

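Of the genes of the set, no call reversed in any of the 20 alternative settings per comparison; over all settings 124 values lost a call and 23 gained one. In Hdac1/2 cKD against NC (6 higher, 5 lower), 3 were higher and 2 lower without trend and robust variances, 3 and 2 without both libraries alone on their lanes, 3 lower with lane as a factor and 3 lower with equal totals. In Sin3a KD against NC (1 higher, 7 lower), limma called 0 higher and 0 lower without trend and robust variances (3 and 11 at an unadjusted p below 0.05), with lane as a factor (4 and 9 unadjusted) and without both lone-lane libraries (2 and 8 unadjusted). All-gene calls there fell to 17 higher and 19 lower, 61 and 33, and 26 and 25. With only both groups compared, 0 were higher and 4 lower (3 and 10 unadjusted), with no filter 0 higher (3 unadjusted), and with equal totals 3 higher. Between the knockdowns (12 higher, 2 lower), lane as a factor gave 6 higher and 1 lower, and 1 was lower with no filter, with equal totals, without trend and robust variances, and without both lone-lane libraries. Adding lane, or dropping a library of a group compared, reduces the degrees of freedom and also changes the estimates. Dropping a library of the group not compared reduces the degrees of freedom but leaves the fold changes as they were. The cause of the changed counts was not tested in any setting. Leaving out each library in turn gave 3 to 7 higher and 2 to 6 lower in Hdac1/2 cKD, 0 to 2 higher and 4 to 10 lower in Sin3a KD, and 9 to 13 higher and 1 to 2 lower between the knockdowns. With the replicate number as a block, Sin3a KD had 2 higher and 6 lower, Hdac1/2 cKD 7 and 5, and the direct comparison 12 and 2; deviations of libraries with the same number correlated between -0.019 and 0.058, not every library correlated best with its own number, and the numbers were not treated as pairs. Pseudocounts of 0.5 and 5 left every count as it was.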
